A study of Mus musculus with 12 samples.

Results

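Cell division needs DNA replication genes in S phase and mitosis genes in G2 and M phase, and 47 genes of these steps were followed in astrocytes after stroke. They are named cyclins, kinases, helicase subunits, kinetochore proteins and spindle proteins, taken as the rows of the deposited count tables that carry their symbols. All 47 symbols were found among the 15774 gene symbols of the tables, and all 47 were among the 15635 genes that entered the test. Of the 47, 4 act at G1 and S entry, 11 in DNA replication, 4 in cohesion and chromosome structure, 15 in mitotic control, and 13 at the kinetochore, on the spindle or in cytokinesis. The last 2 roles, 28 genes in all, are called mitosis genes here.

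Astrocytes, the star-shaped support cells of the brain, were sorted by flow cytometry from cerebral cortex. The mice were WT C57BL/6J, and total RNA was sequenced. In the stroke groups the distal middle cerebral artery was tied off for good and both common carotid arteries were closed for 7 min. The 6 groups of 2 libraries were sham, which had a wound of the skull surface only, and days 1, 3, 7, 21 and 60 after stroke. The age and sex of the mice, the marker used to sort the cells and the number of animals behind each library are not given in the sources used here. Replicates are not said to be separate animals, so p-values measure only the spread between these samples, which may be technical.

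As background, a resting cell that re-enters the cycle switches on cyclin D and cyclin E, which with their kinases free the E2F factors that activate replication genes. Mitosis genes follow later, through promoters whose CHR letters and CCAAT boxes are bound by MuvB complexes with B-MYB or FOXM1 and by NF-Y. Astrocytes of the adult cortex are mostly out of the cycle and part of them can divide again near an injury.

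The promoters of 5 members are shown because they hold the E2F letters known from replication genes or the CHR letters known from mitosis genes. They were chosen after their letters had been seen. The windows come from RefSeq (GRCm38.p6) and run from 250 bases before the first transcribed base to 50 bases from it, so that by RefSeq their end lies in the first exon. The GENCODE annotation places the start of Mcm5 at base 75109569 of chromosome 8, past the end of its window, so by that annotation the window lies wholly before the gene. They are written 5′ to 3′ on the strand of the gene, and capitals mark matches to E2F, CHR or CCAAT letters on either strand. The first transcribed base is counted as 1 and the base before it as -1. Mcm5 and Mcm6 encode subunits of the replicative helicase. Cdk1 is the mitotic kinase, Ccnb2 encodes its partner cyclin B2, and Plk1 is the polo kinase.
The windows lie at chr8:75109259-75109558 on the plus strand for Mcm5, chr1:128359656-128359955 on the minus strand for Mcm6, chr9:70421505-70421804 on the minus strand for Ccnb2, chr10:69352863-69353162 on the minus strand for Cdk1, and chr7:122159185-122159484 on the plus strand for Plk1.
Mcm5: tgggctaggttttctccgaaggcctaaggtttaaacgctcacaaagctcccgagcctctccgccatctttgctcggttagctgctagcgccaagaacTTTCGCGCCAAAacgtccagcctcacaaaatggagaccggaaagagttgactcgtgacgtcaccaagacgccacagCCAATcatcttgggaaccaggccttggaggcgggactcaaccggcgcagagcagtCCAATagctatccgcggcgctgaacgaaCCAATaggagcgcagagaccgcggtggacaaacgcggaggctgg
Mcm6: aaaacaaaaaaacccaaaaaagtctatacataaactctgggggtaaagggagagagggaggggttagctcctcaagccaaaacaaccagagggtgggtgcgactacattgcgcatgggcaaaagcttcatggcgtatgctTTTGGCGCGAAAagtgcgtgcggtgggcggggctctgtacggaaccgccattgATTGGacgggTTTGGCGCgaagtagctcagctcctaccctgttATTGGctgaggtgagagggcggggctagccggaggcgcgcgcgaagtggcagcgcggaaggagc
Ccnb2: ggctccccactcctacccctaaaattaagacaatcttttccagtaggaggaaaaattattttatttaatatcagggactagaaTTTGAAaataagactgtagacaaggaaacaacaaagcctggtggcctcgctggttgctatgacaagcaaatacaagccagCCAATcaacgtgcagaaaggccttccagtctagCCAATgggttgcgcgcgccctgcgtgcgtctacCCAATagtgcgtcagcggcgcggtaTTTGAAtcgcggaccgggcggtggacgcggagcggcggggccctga
Cdk1: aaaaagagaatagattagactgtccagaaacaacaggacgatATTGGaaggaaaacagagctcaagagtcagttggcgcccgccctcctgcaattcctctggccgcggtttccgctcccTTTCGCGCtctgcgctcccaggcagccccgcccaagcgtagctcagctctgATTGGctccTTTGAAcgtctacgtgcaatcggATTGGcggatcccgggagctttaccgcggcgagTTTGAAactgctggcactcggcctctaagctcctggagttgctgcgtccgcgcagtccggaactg
Plk1: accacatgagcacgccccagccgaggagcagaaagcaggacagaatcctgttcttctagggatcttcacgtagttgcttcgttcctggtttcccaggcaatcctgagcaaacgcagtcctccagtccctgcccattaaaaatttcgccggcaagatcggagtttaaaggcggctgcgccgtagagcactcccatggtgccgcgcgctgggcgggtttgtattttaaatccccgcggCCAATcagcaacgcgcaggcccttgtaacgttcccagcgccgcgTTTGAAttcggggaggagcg

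The Mcm5 window holds overlapping E2F matches at -153 to -146 and -149 to -142 and 3 CCAAT boxes. Mcm6 holds overlapping E2F matches at -110 to -103 and -106 to -99 and a further one at -47 to -40. Ccnb2 has CHR letters at -167 to -162 and at 5 to 10, with 3 CCAAT boxes before the start. Plk1 has CHR letters at 31 to 36 and a CCAAT box at -14 to -10. The Cdk1 window holds all 3 kinds of letters, with CHR at -71 to -66 and at -15 to -10.

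Over the members, the letters searched were TTTCGCGC, TTTGGCGC, TTTCCCGC and TTTGCCGC for E2F, TTTGAA and TTCGAA for CHR, and CCAAT, each on both strands. A window was found for 39 members, and matches of different kinds overlapped in 1 of them, Mcm7. E2F letters stood in 5 of 10 replication windows, in 1 of 23 mitosis windows and in 4.233% of the 11693 tested genes that have a window. CHR letters stood in 3 of 10 replication windows, in 18 of 23 mitosis windows and in 16.548% of the tested genes. CHR and CCAAT letters stood together in 3 of 10 replication windows, in 15 of 23 mitosis windows and in 8.022% of the tested genes. A match is a description of the letters and does not show binding.

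The files hold whole-number counts per gene. Replicate 1 of each group held between 13006008 and 16575045 of them and replicate 2 between 97056596 and 156128922, a depth 6.30 to 9.63 times as great. Levels are given in CPM, counts scaled to a common library size after TMM normalisation, and a pair of values is replicate 1 and then replicate 2. Low members rest on few counts in replicate 1, and intervals and floors cover counting error only. Genes were called higher or lower at a Benjamini-Hochberg adjusted p under 0.05 in edgeR's quasi-likelihood test over all genes, and every adjusted p of a gene below comes from it. Log2 fold changes are given ± standard error.

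Markers of the labelled cell type and of other types were summed in each library. The 12 astrocyte markers were all detected in each library and summed to 8926 and 8032 CPM in sham, 4209 and 13288 on day 1, 3630 and 8661 on day 3, 2256 and 1779 on day 7, 3329 and 3045 on day 21, and 3508 and 3260 on day 60. These markers did not move together. Those called higher than sham numbered 2, 1, 2, 2 and 1 of 12 in order of time, and those called lower 0, 2, 7, 2 and 2. The 8 fibroblast and meningeal markers summed to 64.6 and 79.4 CPM in sham, 1654 and 2342 on day 1, 5499 and 22098 on day 3, 88189 and 286725 on day 7, 25232 and 50306 on day 21, and 16568 and 27392 on day 60. Of these, Dpep1 was at 0 in both sham libraries and the other 7 were detected in both.
The 10 microglia markers, none of them at 0 in any library, summed to 591 and 802 CPM in sham, 302 and 328 on day 1, 2707 and 3023 on day 3, 5017 and 3881 on day 7, 1501 and 1753 on day 21, and 788 and 837 on day 60. In order of time 0, 5, 7, 2 and 1 of these 10 were called higher than sham. Those called lower numbered 3, 0, 0, 0 and 4, so at day 60 more were lower than higher. The 10 macrophage and monocyte markers in the files summed to 16.7 and 258 CPM in sham, 98.2 and 719.9 on day 1, 4527 and 3554 on day 3, 4625 and 5742 on day 7, 1215 and 2395 on day 21, and 1428 and 1943 on day 60. Among these Cd5l was at 0 in both sham libraries, and Ccr2 reached 20.4 and 3.53 CPM at day 3.
The 6 neutrophil markers summed to 18.6 and 7.51 CPM in sham, 41.2 and 18.8 on day 1, 145 and 135 on day 3, 103 and 73.9 on day 7, 68.9 and 83.3 on day 21, and 7.96 and 16.1 on day 60, and 5 of the 6 were called higher than sham at day 3. The 9 lymphocyte markers in the files summed to 1.49 and 3.06 CPM in sham, 6.67 and 4.65 on day 1, 11.5 and 4.04 on day 3, 2.08 and 2.86 on day 7, 7.06 and 8.0 on day 21, and 9.62 and 15.6 on day 60. Of these 9, only Cd79a and Lck were detected in sham, and 4 (Cd3g, Cd8a, Ms4a1 and Nkg7) were called higher at day 60.
Summed markers of neurons and oligodendrocytes went the other way, and in sham these sums were of the size of the astrocyte sum. At each of days 7, 21 and 60, 1 of the 8 oligodendrocyte markers was called higher than sham, against 5, 4 and 4 called lower. The 8 oligodendrocyte markers summed to 10334 and 9932 CPM in sham, 1147 and 1893 on day 1, 1593 and 1682 on day 3, 1046 and 644 on day 7, 1806 and 1496 on day 21, and 1497 and 1147 on day 60. The 10 neuron markers summed to 8324 and 10725 CPM in sham, 473 and 1548 on day 1, 425 and 1028 on day 3, 295 and 205 on day 7, 1039 and 1200 on day 21, and 1142 and 1034 on day 60. Both sums were below both sham libraries in every stroke library, so they moved with each comparison with sham. The 9 pericyte and smooth muscle markers summed to 566 and 736 CPM in sham, 1053 and 805 on day 3, and 2370 and 2770 on day 7. Oligodendrocyte precursor markers summed to 621 and 602 CPM in sham and 389 and 670 on day 3. Neural stem cell markers summed to 296 and 306 CPM in sham and 344 and 218 on day 3. Fibroblast, pericyte, macrophage, neutrophil and microglia sums were above sham at days 3 and 7, as were most division genes. In bulk samples fewer cells of a type and less RNA per cell cannot be told apart, and neither can more cells of a type and more RNA per cell. The part of other cell types in the results below was not tested.

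Several members have limits of their own. Pcna, Tyms, Ccnb1 and Ccnb2 have named pseudogene copies in the GENCODE annotation, so their reads may be shared. Exons of 10 members overlap a coding gene on the opposite strand and those of Foxm1 overlap one on the same strand, and the strand setting of the counting is not given in the sources used here.

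Of the 47 members, 45 changed at some time in the test of all 5 times together, a share set beside 42.7% of all genes tested. Ncapg and Kif20a did not pass, with adjusted p of 0.0814 and 0.0526, and all 47 passed with the replicate number as a block. The mean level was highest at day 3 in 44 members. The exceptions were E2f1 with its highest mean in sham, Cdkn1a at day 1 and Mcm6 at day 7. The lowest mean of mitosis genes was at day 1 in 16 of 28, whereas the lowest mean of replication genes was in sham in 7 of 11. The groups of highest and lowest mean were not counted over all genes, so these counts have no background.

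**Figure D1:**
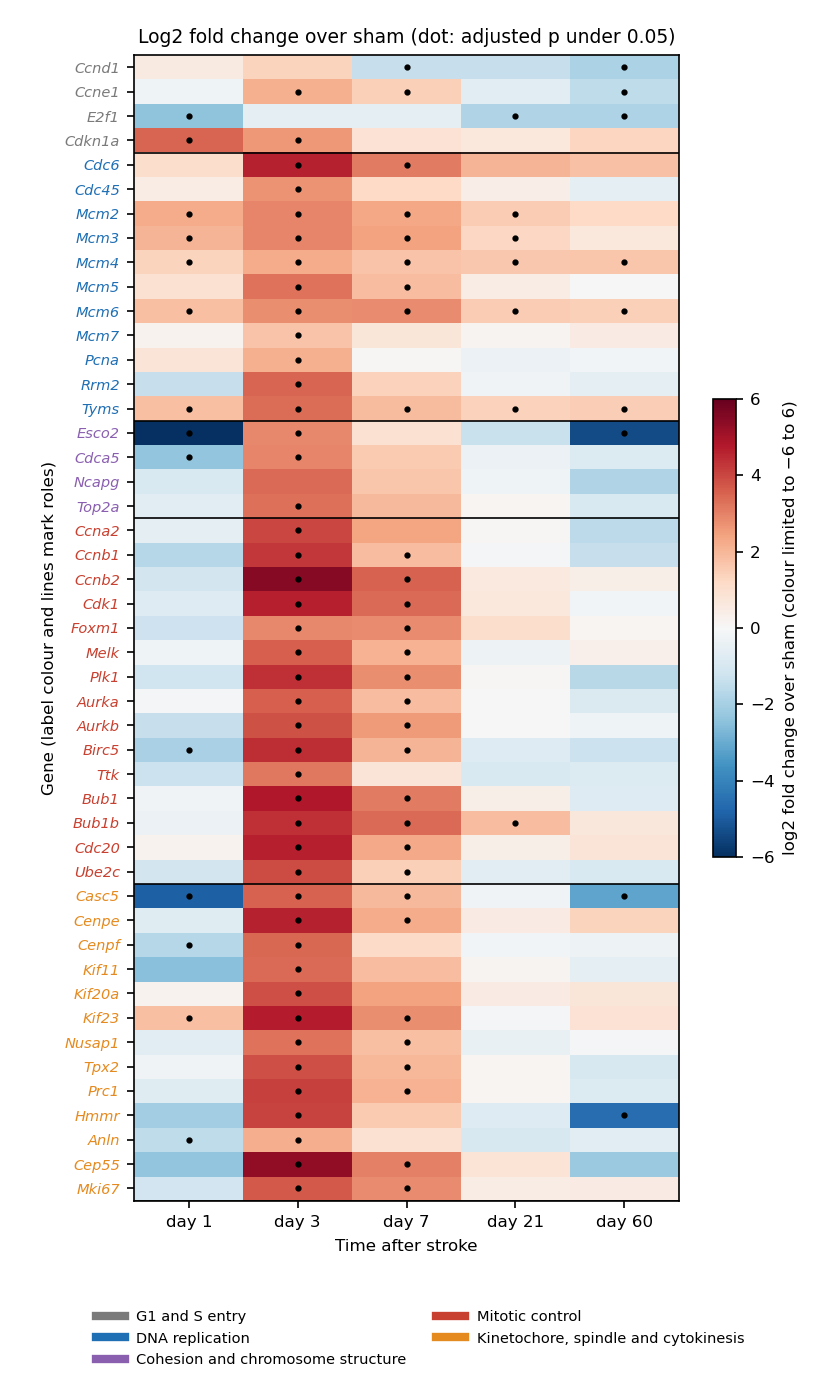
Log2 fold change over sham of the 47 members (rows, grouped by role) at days 1, 3, 7, 21 and 60 (columns), where red is higher than sham, blue is lower, and a dot marks an adjusted p under 0.05. Dots fill 44 of 47 rows at day 3 and 30 of 47 at day 7, and at day 21 and day 60 the red rows with dots are mostly replication genes.

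Several replication genes were already above sham at day 1, most had their highest mean at day 3, and some stayed above sham. Mcm2, a helicase subunit, had 7.82 and 7.62 CPM in sham, 46.4 and 25.7 on day 1, 40.5 and 77.0 on day 3, 40.6 and 36.1 on day 7, 19.9 and 24.4 on day 21, and 10.4 and 25.0 on day 60. Mcm5, another subunit, had 5.97 and 12.6 CPM in sham, 20.1 and 15.5 on day 1, 74.4 and 106 on day 3, 34.2 and 33.6 on day 7, 12.5 and 12.8 on day 21, and 9.68 and 8.64 on day 60. Both day 1 libraries exceeded both sham libraries for Mcm2 and Mcm5, and by day 60 Mcm5 lay within the sham range.
Pcna, the sliding clamp that holds DNA polymerase on its template, had 11.8 and 10.4 CPM in sham, 18.8 and 18.8 on day 1, 43.5 and 53.5 on day 3, 11.4 and 12.1 on day 7, 6.67 and 10.6 on day 21, and 7.62 and 12.3 on day 60. Rrm2, the regulated subunit of ribonucleotide reductase, which makes deoxynucleotides, had 17.3 and 10.8 CPM in sham, 2.95 and 7.69 on day 1, 99.2 and 215 on day 3, 39.8 and 34.3 on day 7, 11.6 and 12.5 on day 21, and 3.84 and 14.8 on day 60. Unlike the helicase subunits, Rrm2 lay below both sham libraries at day 1 and above them all at day 3.
Mcm6 had 17.0 and 24.0 CPM in sham, 83.6 and 58.7 on day 1, 94.9 and 192 on day 3, 132 and 162 on day 7, 55.7 and 64.0 on day 21, and 32.8 and 79.1 on day 60. Its day 7 libraries lay between those of day 3, and all libraries after stroke exceeded both sham libraries. Tyms, thymidylate synthase, had 3.64 and 3.54 CPM in sham, 14.0 and 10.9 on day 1, 27.5 and 46.2 on day 3, 13.4 and 13.8 on day 7, 8.57 and 10.0 on day 21, and 9.57 and 10.3 on day 60, and here too every library after stroke lay above sham.

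Mitotic regulators were low in sham and at day 1 and were highest at days 3 and 7. Cdk1 had 1.49 and 3.26 CPM in sham, 0.500 and 2.16 on day 1, 36.0 and 88.5 on day 3, 24.4 and 27.3 on day 7, 2.91 and 4.62 on day 21, and 1.60 and 2.68 on day 60. Ccnb2 had 2.27 and 1.20 CPM in sham, 0.556 and 0.994 on day 1, 51.6 and 98.4 on day 3, 17.5 and 22.4 on day 7, 2.07 and 3.03 on day 21, and 1.78 and 2.57 on day 60. Day 3 libraries of both genes exceeded those of every other group, and day 7 libraries exceeded all of sham and days 1, 21 and 60.
Aurkb, the Aurora kinase of the chromosomal passenger complex, had 2.45 and 2.85 CPM in sham, 1.5 and 0.632 on day 1, 34.7 and 40.4 on day 3, 14.2 and 16.7 on day 7, 2.24 and 3.16 on day 21, and 3.38 and 1.11 on day 60. Birc5 (survivin), a subunit of that complex, had 4.36 and 2.63 CPM in sham, 1.06 and 0.771 on day 1, 65.5 and 82.0 on day 3, 13.2 and 15.5 on day 7, 1.57 and 2.47 on day 21, and 0.859 and 1.89 on day 60. Plk1 had 1.73 and 3.42 CPM in sham, 0.778 and 1.43 on day 1, 33.9 and 73.9 on day 3, 19.1 and 17.1 on day 7, 2.74 and 2.69 on day 21, and 0 and 1.47 on day 60. For these 3 genes days 3 and 7 did not overlap any other group, and Plk1 had 0 counts in replicate 1 at day 60.

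Kinetochore, spindle and cytokinesis genes were likewise highest at day 3. Mki67, which encodes Ki-67, a coat of mitotic chromosomes and the common label of cycling cells, had 1.97 and 3.72 CPM in sham, 0.611 and 1.87 on day 1, 35.7 and 38.5 on day 3, 25.7 and 15.8 on day 7, 4.42 and 3.41 on day 21, and 4.87 and 3.34 on day 60. Its day 3 libraries lay close together, and day 7 followed below them. Casc5, the older name of the kinetochore scaffold Knl1, had 1.19 and 1.37 CPM in sham, 0 and 0.0557 on day 1, 9.43 and 20.3 on day 3, 5.71 and 4.37 on day 7, 0.896 and 1.30 on day 21, and 0.115 and 0.160 on day 60. It had 0 and 6 counts at day 1 and 2 and 22 at day 60, against 20 and 142 in sham.

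Genes of cohesion and chromosome structure also had their highest means at day 3. Top2a, topoisomerase II, which untangles sister DNA, had 4.60 and 12.1 CPM in sham, 2.28 and 8.04 on day 1, 42.3 and 122 on day 3, 32.6 and 32.3 on day 7, 8.18 and 10.1 on day 21, and 2.75 and 6.07 on day 60. Esco2, the acetyltransferase that establishes cohesion in S phase, had 1.19 and 1.87 CPM in sham, 0.0556 and 0 on day 1, 10.7 and 11.8 on day 3, 4.50 and 1.46 on day 7, 0.672 and 0.573 on day 21, and 0.0573 and 0.0290 on day 60. It was nearly absent at day 1 and day 60, with 1 and 0 counts and 1 and 4 counts. Ncapg, a condensin subunit, had 0.0597 and 4.32 CPM in sham, 0.278 and 2.01 on day 1, 13.7 and 33.5 on day 3, 5.71 and 8.68 on day 7, 1.18 and 2.55 on day 21, and 0 and 1.16 on day 60, so that the sham libraries themselves spanned the levels of days 1 and 21.

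The 4 genes of G1 and S entry each took another course. Ccnd1 (cyclin D1) had 81.1 and 41.6 CPM in sham, 75.7 and 104 on day 1, 119 and 194 on day 3, 28.8 and 18.0 on day 7, 25.8 and 21.8 on day 21, and 22.7 and 9.93 on day 60. Ccne1 (cyclin E1) had 5.49 and 4.75 CPM in sham, 3.45 and 5.10 on day 1, 11.9 and 32.2 on day 3, 13.8 and 13.7 on day 7, 2.74 and 3.72 on day 21, and 1.89 and 1.69 on day 60. Cyclin D1 lay below both sham libraries from day 7 on, while cyclin E1 was above them at days 3 and 7.
E2f1, a factor that activates S phase genes, had 40.7 and 40.4 CPM in sham, 3.34 and 11.7 on day 1, 24.2 and 30.7 on day 3, 28.3 and 26.5 on day 7, 13.6 and 9.99 on day 21, and 11.7 and 10.9 on day 60. Every library after stroke lay below both sham libraries. Cdkn1a, the p53-induced inhibitor p21, had 47.6 and 28.5 CPM in sham, 669 and 188 on day 1, 369 and 89.9 on day 3, 86.0 and 54.7 on day 7, 63.2 and 55.9 on day 21, and 128 and 57.7 on day 60. Its replicates differed widely, with replicate 1 the higher in every group.

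**Figure D2:**
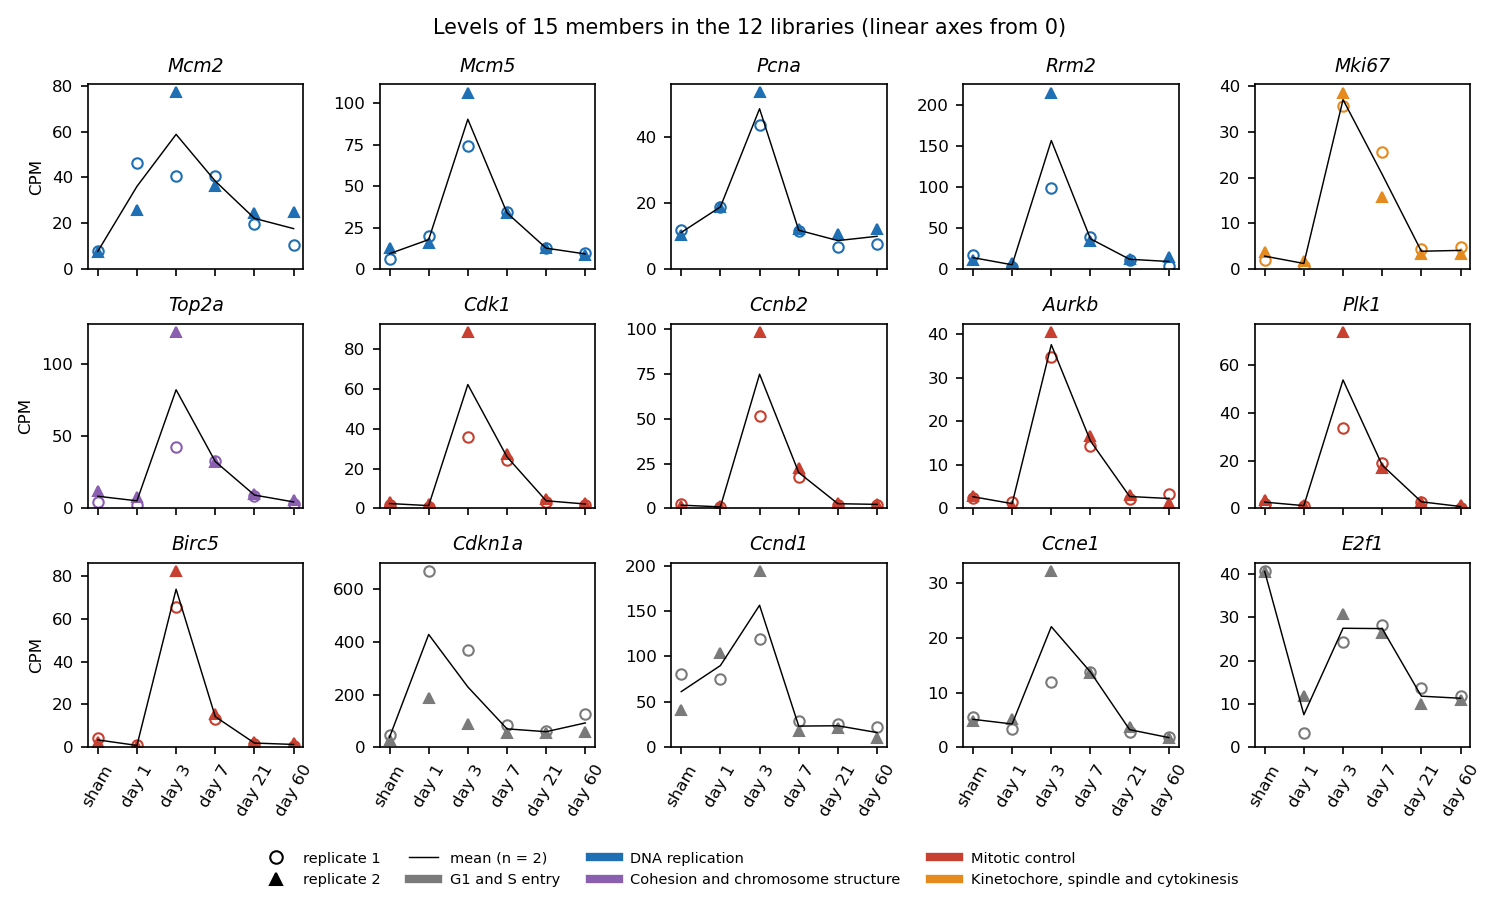
CPM of 15 members (panels, linear axes from 0) in the 12 libraries by group. Open circles are replicate 1, filled triangles replicate 2 and lines join the means of n = 2. Of the replication genes shown, Mcm2 is above sham at day 1 and Rrm2 is below it. The mitosis gene Birc5 is also below sham at day 1, and the mean of each of these genes is highest at day 3.

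At day 1 several replication genes were higher than in sham. The 4 of 28 mitosis genes called lower were near the 13.9% of all genes called lower. Of the 47 members 7 were higher and 7 lower, or 14 beside 30.5% of all genes (16.7% higher and 13.9% lower). The members' count in all was near that background. Of 11 replication genes 5 rose and 0 fell, with a median log2 fold change of 1.05, against 0.06 over all genes. They were Mcm2 at 2.22 ± 0.50 (adjusted p = 0.0097), Mcm3 at 2.05 ± 0.40 (adjusted p = 0.0055), Mcm6 at 1.80 ± 0.49 (adjusted p = 0.0207), Tyms and Mcm4.
Of 28 mitosis genes 1 rose and 4 fell, with a median of -1.10. The gene that rose was Kif23, a kinesin of the central spindle, at 1.82 ± 0.54 (adjusted p = 0.0281). Those that fell were Casc5 at -4.89 ± 0.85 (adjusted p = 0.0035), Birc5 at -1.95 ± 0.49 (adjusted p = 0.0144), Cenpf at -1.72 ± 0.46 (adjusted p = 0.0189) and Anln (anillin, of the cleavage furrow) at -1.52 ± 0.49 (adjusted p = 0.0383). Both libraries lay below both sham libraries in 16 of the 28, but the same share over all genes was not counted. With the replicate number as a block 11 members were lower, 7 of them mitosis genes and 1 a replication gene. That fit also called more of all 15635 genes lower, 3089 in place of 2168.
Of the cohesion genes Cdca5 (sororin) fell by 2.37 ± 0.77 on the log2 scale (adjusted p = 0.0403). Esco2 fell as well (adjusted p = 0.0055). Its 1 count at day 1 against 214 in sham gave a ratio of 0.00449, with an exact 95% counting interval of 0.000113 to 0.0253. At G1 and S entry Cdkn1a rose at 3.49 ± 0.80 (adjusted p = 0.0103) and E2f1 fell at -2.41 ± 0.52 (adjusted p = 0.0081). Over the same groups the neuron sum was 473 and 1548 CPM at day 1, against 8324 and 10725 CPM in sham, and the oligodendrocyte sum 1147 and 1893 CPM, against 10334 and 9932 CPM. Their part in the fall of E2f1 was not tested.
Calls held without each library in turn for Casc5, E2f1, Esco2, Mcm3 and Tyms. The count of 5 replication genes was 3 when either sham library was left out and 2 when replicate 1 of day 1 was, and the 14 members became 7 in each of these cases. The call of Kif23 was lost when any of the 4 libraries of these groups was left out. Beside these results, the microglia sum was lower at day 1 than in sham and the endothelial sum was 5978 and 5103 CPM at day 1, against 1372 and 2790 CPM in sham.

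At day 3 nearly every member was higher than in sham. Of 47 members 44 rose and 0 fell, while 18% of all genes rose and 14.2% fell. All 11 replication genes rose, with a median log2 fold change of 2.93, and all 28 mitosis genes rose, with a median of 3.96, against 0.16 over all genes. Both day 3 libraries lay above both sham libraries in 46 of 47 members, E2f1 being the exception. That share was not counted over all genes.
The largest changes of replication genes were Cdc6, which loads the helicase, at 4.64 ± 0.98 (adjusted p = 0.0063), Rrm2 at 3.49 ± 0.70 (adjusted p = 0.005) and Tyms at 3.36 ± 0.39 (adjusted p = 0.00043). Among mitotic regulators Ccnb2 changed most at 5.46 ± 0.58 (adjusted p = 0.00029), followed by the checkpoint kinase Bub1 at 4.83 ± 1.17 (adjusted p = 0.0116) and Cdk1 at 4.68 ± 0.77 (adjusted p = 0.002). Cdc20, which activates the anaphase-promoting complex, stood at 4.67 ± 0.49 (adjusted p = 0.00028).
At the spindle and in cytokinesis the abscission protein gene Cep55 led at 5.32 ± 0.92 (adjusted p = 0.0025), before Kif23 at 4.71 ± 0.60 (adjusted p = 0.00057) and the kinetochore kinesin gene Cenpe at 4.64 ± 0.57 (adjusted p = 0.00052). Mki67 rose at 3.69 ± 0.60 (adjusted p = 0.0018). Of the 4 cohesion and chromosome structure genes Top2a, Cdca5 and Esco2 rose, Top2a at 3.29 ± 0.76 (adjusted p = 0.0095), Cdca5 at 2.92 ± 0.76 (adjusted p = 0.016) and Esco2 at 2.86 ± 0.92 (adjusted p = 0.0371), and Ncapg did not pass (adjusted p = 0.128, or 0.0106 with the replicate number as a block).
Of the G1 genes Cdkn1a rose at 2.59 ± 0.77 (adjusted p = 0.0276) and Ccne1 at 2.11 ± 0.52 (adjusted p = 0.0124). Ccnd1 had an adjusted p of 0.061, or 0.0244 with the block, and E2f1 one of 0.41. The blocked fit called 46 of 47 members. Calls held without each library in turn in 31 of 44 members, namely 10 replication and 21 mitosis genes.
Replicate 2 of day 3 was above replicate 1 in 45 of 47 members, with a median difference of 0.93 on the log2 scale against 0.08 over all genes. In the same replicate the astrocyte sum was the higher, at 8661 and 3630 CPM in replicates 2 and 1, and so was the fibroblast and meningeal sum, at 22098 and 5499 CPM. The endothelial sum was the lower, at 1021 and 3349 CPM. The microglia sum was 2707 and 3023 CPM at day 3, against 591 and 802 CPM in sham, and the macrophage sum 4527 and 3554 CPM, against 16.7 and 257.6 CPM. The fibroblast and meningeal sum was 5499 and 22098 CPM, against 64.6 and 79.4 CPM in sham, and the neutrophil sum 145 and 135 CPM, against 18.6 and 7.51 CPM. The part of these cell types in the rise of the members was not tested.

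**Figure D3:**
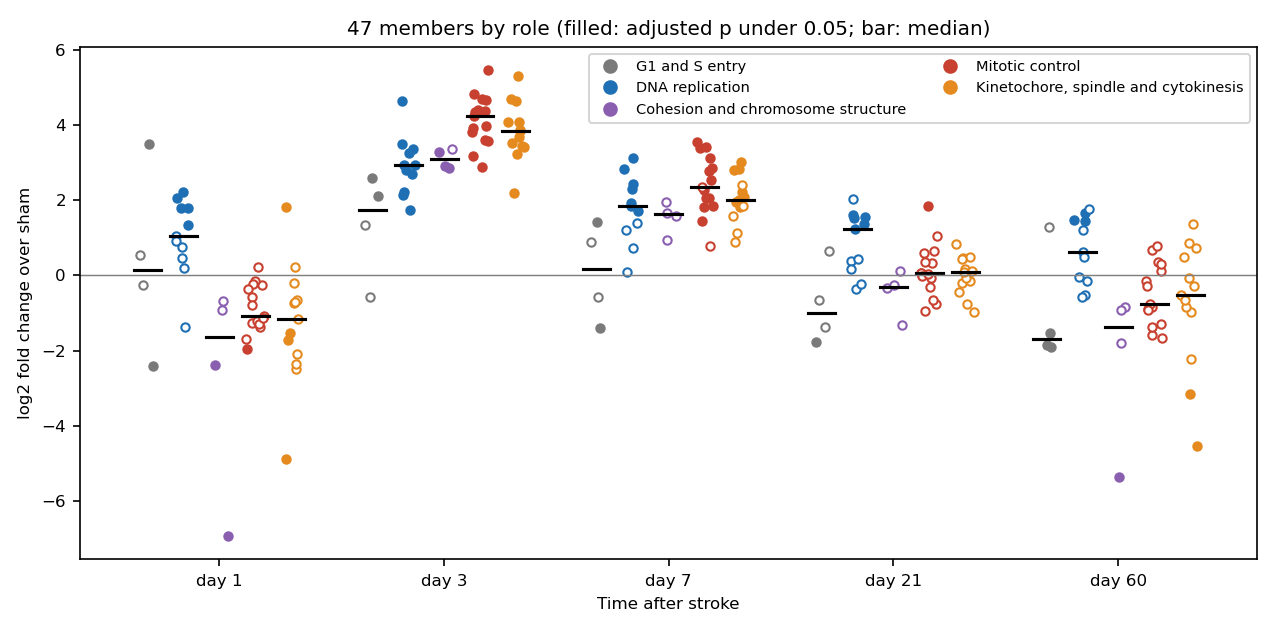
Log2 fold change over sham of each of the 47 members at the 5 times, coloured by role, with filled points for an adjusted p under 0.05 and a bar at the median of the role. The medians of replication genes lie above 0 at all 5 times (1.05, 2.93, 1.86, 1.25 and 0.62 in order of time), and those of both mitosis roles are below 0 at day 1 and day 60.

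At day 7 most replication and mitosis genes were still above sham. Of 47 members 29 were higher and 1 was lower than in sham, beside 23.2% and 19.8% of all genes (43% in either direction). Of 11 replication genes 7 rose, with a median log2 fold change of 1.86, and of 28 mitosis genes 21 rose, with a median of 2.16, against 0.13 over all genes. Of the 4 genes of cohesion and chromosome structure 0 passed the test, and Top2a came nearest with an adjusted p of 0.0511, or 0.00225 with the replicate number as a block (1 of the 4 had an unadjusted p under 0.05).
Among replication genes Cdc6 stood at 3.13 ± 0.93 (adjusted p = 0.0206), Mcm6 at 2.84 ± 0.51 (adjusted p = 0.0016) and Mcm3 at 2.43 ± 0.40 (adjusted p = 0.0011). Among mitotic regulators Ccnb2 stood at 3.55 ± 0.53 (adjusted p = 0.00061), Cdk1 at 3.42 ± 0.73 (adjusted p = 0.004) and the checkpoint gene Bub1b at 3.39 ± 0.62 (adjusted p = 0.0018). At the spindle and in cytokinesis Cep55 stood at 3.01 ± 0.84 (adjusted p = 0.0156), Mki67 at 2.85 ± 0.58 (adjusted p = 0.003) and Kif23 at 2.80 ± 0.55 (adjusted p = 0.0027).
Pcna did not pass, with 11.4 and 12.1 CPM at day 7 and 11.8 and 10.4 CPM in sham. Ccne1 rose at 1.43 ± 0.51 (adjusted p = 0.0446), and Ccnd1 was the member that fell, at -1.39 ± 0.50 (adjusted p = 0.0448). Calls held without each library in turn in 13 of 30 members, 5 of them replication and 8 mitosis genes. The 30 members became 17 when replicate 1 of sham or replicate 1 of day 7 was left out, and the 21 mitosis genes became 11 in both cases and 13 when replicate 2 of sham was left out. The fibroblast markers made up the largest of the summed marker levels at day 7, at 88189 and 286725 CPM, and the astrocyte sum was its lowest, at 2256 and 1779 CPM. The part of this change in composition was not tested.

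At day 21 replication genes made up most of the members that were still high. Replication genes outside the members did not share this: 2 of 41 were called higher, beside 17.8% of all genes, with a median log2 fold change of 0.21. Of 47 members 6 were higher and 1 was lower, or 7 beside 33.2% of all genes (17.8% higher and 15.4% lower), which is below the background. The 5 replication genes that rose were Mcm4 at 1.60 ± 0.42 (adjusted p = 0.0157), Mcm6 at 1.55 ± 0.49 (adjusted p = 0.0335), Mcm2 at 1.52 ± 0.49 (adjusted p = 0.0368), Mcm3 and Tyms. Of 28 mitosis genes 1 rose, Bub1b at 1.86 ± 0.59 (adjusted p = 0.0348), and their median log2 fold change was 0.07, the same as over all genes, against 1.25 for replication genes. E2f1 fell at -1.78 ± 0.51 (adjusted p = 0.0227), and with the replicate number as a block 2 members were lower.
Of these 7 calls 0 held without each library in turn, and 0 members were called without day 21 replicate 1 or without day 21 replicate 2. There were 1 and 2 calls without sham replicates 1 and 2, and 4 without day 7 replicate 1. Without both day 7 libraries, a choice made after seeing the data, 4 of 47 members and 3 of 11 replication genes were called, and Bub1b was not.

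At day 60 few members differed from sham, and more were lower than higher. Of 47 members 3 were higher and 6 lower, beside 16.8% and 14.8% of all genes (31.5% in either direction), so that both counts were at or below the background. The 3 that rose were the replication genes Mcm4 at 1.67 ± 0.42 (adjusted p = 0.0145), Tyms at 1.47 ± 0.37 (adjusted p = 0.0142) and Mcm6 at 1.45 ± 0.49 (adjusted p = 0.0446). Those that fell were Hmmr, which encodes a spindle protein, at -4.55 ± 0.97 (adjusted p = 0.0068), Casc5 at -3.14 ± 0.75 (adjusted p = 0.0118), Esco2 at -5.36 ± 1.16 (adjusted p = 0.0072), and the G1 genes Ccnd1 at -1.91 ± 0.51 (adjusted p = 0.0178), E2f1 at -1.84 ± 0.51 (adjusted p = 0.0217) and Ccne1 at -1.52 ± 0.52 (adjusted p = 0.0478). Hmmr had 0.344 and 0.0290 CPM at day 60, against 2.51 and 3.15 CPM in sham.
Of these 9 calls only that of Hmmr held without each library in turn. The 9 members became 4, 5 and 4 without sham replicate 1, sham replicate 2 and day 60 replicate 2, and the 3 replication genes became 1, 1 and 0. With the replicate number as a block 5 members were higher and 8 lower, and 4 mitosis genes were among those lower. In that fit 3532 of all 15635 genes were higher and 3302 lower, so both counts of members stayed below the background. The low counts of Esco2, Casc5 and Hmmr make their fitted folds depend on the prior count.

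Grouped by the times at which they were called, Mcm4, Mcm6 and Tyms were higher than sham at all 5 times, and Mcm2 and Mcm3 at the first 4. There were 19 members called higher at days 3 and 7 and in neither direction at the other times, and 9 at day 3 in the same way. Birc5, Casc5 and Ccne1 were also higher at days 3 and 7 only, and Esco2, Cdca5, Cenpf, Anln and Hmmr at day 3 only, but these were called lower than sham at another time. An effect called at 1 time and not at another is not thereby shown to differ between them, and the comparisons between times follow.

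Between day 3 and day 1 nearly all mitosis genes differed. At day 3, 35 of 47 members were higher than at day 1 and 0 were lower, beside 3.09% and 0.48% of all genes (3.57% in either direction). Of 28 mitosis genes 27 rose, with a median log2 fold change of 4.95, and of 11 replication genes 4 rose, with a median of 1.54. The replication genes were Rrm2 at 4.87 ± 0.75 (adjusted p = 0.0068), Mcm5 at 2.35 ± 0.40 (adjusted p = 0.0116), Tyms at 1.57 ± 0.37 (adjusted p = 0.046) and Mcm7.
Ccnb2 led the mitotic regulators at 6.54 ± 0.61 (adjusted p = 0.0019), before Birc5 at 6.36 ± 0.57 (adjusted p = 0.0019) and Ccnb1 (cyclin B1) at 5.94 ± 0.76 (adjusted p = 0.003). Casc5 stood at 8.43 ± 0.94 (adjusted p = 0.0019), Cep55 at 7.68 ± 1.06 (adjusted p = 0.0042) and Hmmr at 6.18 ± 0.92 (adjusted p = 0.0061). Cdca5, Top2a and Esco2 rose too, Cdca5 at 5.29 ± 0.85 (adjusted p = 0.0091) and Top2a at 3.98 ± 0.79 (adjusted p = 0.0229). At G1 and S entry Ccne1 rose at 2.36 ± 0.52 (adjusted p = 0.0375).
The helicase genes that were called at day 1 against sham did not pass here. Mcm2 had 40.5 and 77.0 CPM at day 3 and 46.4 and 25.7 CPM at day 1, so that these groups overlapped. Calls held without each library in turn in 19 of 35 members, 18 of them mitosis genes. The 35 members became 20 without day 1 replicate 1, and the 4 replication genes became 0, 1 and 1 without day 1 replicate 1, day 1 replicate 2 and day 3 replicate 2, and 2 without either replicate of day 7 or of day 21. A fit to the 4 libraries of these groups alone called 0 members and 0 of all genes. With the replicate number as a block, 7 replication genes were called.

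At day 7 several members were lower than at day 3, with none called among the genes of cohesion and chromosome structure. Of 47 members 10 fell and 0 rose, beside 3.22% and 3.06% of all genes (6.29% in either direction). They were Pcna at -2.04 ± 0.38 (adjusted p = 0.0188), Tyms at -1.44 ± 0.36 (adjusted p = 0.0452), Ccnd1 at -2.74 ± 0.52 (adjusted p = 0.0199) and 7 of 28 mitosis genes. Of these, Ube2c, the ubiquitin-conjugating enzyme of the anaphase-promoting complex, stood at -2.49 ± 0.47 (adjusted p = 0.0196), Cdc20 at -2.40 ± 0.44 (adjusted p = 0.0188) and Birc5 at -2.36 ± 0.47 (adjusted p = 0.0229). Ccnb2 was the 4th mitotic regulator called. At the spindle Cenpe stood at -2.40 ± 0.52 (adjusted p = 0.0284), Cenpf at -2.30 ± 0.46 (adjusted p = 0.0225) and Tpx2, whose protein activates Aurora A, at -1.87 ± 0.47 (adjusted p = 0.0438).
With the replicate number as a block 22 members fell, 15 of them mitosis genes and 5 replication genes. Of the 10 calls 0 held without each library in turn, and the count became 6, 1, 0 and 0 without day 3 replicate 1, day 3 replicate 2, day 7 replicate 1 and day 7 replicate 2. The 4 libraries alone gave 0 calls among members and among all genes.

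Between day 21 and day 7 the test called few members, all lower at day 21. Of 47 members 2 were lower at day 21 and 0 higher, beside 0.198% and 0.243% of all genes. They were Ccnb2 at -2.96 ± 0.51 (adjusted p = 0.0442) and Birc5 at -2.81 ± 0.49 (adjusted p = 0.0442). An unadjusted p under 0.05 was found in 35 members, 26 of them mitosis genes and 4 of them replication genes. The share of all genes at that level was not counted, so these counts have no background. With the replicate number as a block 16 members fell, 14 of them mitosis genes. The count of 2 became 0 without either replicate of sham, day 7 or day 21, 1 without day 3 replicate 2, and 5 without either replicate of day 1.

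Between day 60 and day 21 edgeR called 0 of 47 members and 0 of all genes. An unadjusted p under 0.05 was found in 5 members, and the share of all genes at that level was not counted. DESeq2 called 3 members lower at day 60, beside 102 of all genes.

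Among the members the balance of mitosis and replication genes differed between the groups, as sums of CPM within each library show. Their ratio does not depend on how libraries are scaled. The 11 replication genes summed to 105 and 125 CPM in sham, 296 and 242 on day 1, 548 and 1020 on day 3, 419.7 and 441 on day 7, 209 and 234 on day 21, and 153 and 258 on day 60. The 28 mitosis genes summed to 65.5 and 102 CPM in sham, 45.3 and 59.9 on day 1, 917 and 1768 on day 3, 399 and 395 on day 7, 78.8 and 101 on day 21, and 53.6 and 85.9 on day 60. The mitosis sum divided by the replication sum was 0.717 ± 0.135 in sham, 0.200 ± 0.0675 on day 1, 1.70 ± 0.0420 on day 3, 0.923 ± 0.0379 on day 7, 0.404 ± 0.0372 on day 21 and 0.341 ± 0.0116 on day 60 (SD, n = 2 each).
The libraries of the 6 groups did not overlap in this ratio, and the order from low to high was day 1, day 60, day 21, sham, day 7 and day 3. Day 60 and day 21 were the closest neighbours, with 0.349 and 0.333 at day 60 and 0.377 and 0.430 at day 21. Genes of these pathways outside the members did not keep this order. In sham 58 other mitosis genes summed to 759 and 855 CPM, above the 465 and 612 CPM of 41 other replication genes. At day 7 the other mitosis genes summed to 692 and 733 CPM, below the 732 and 865 CPM of the other replication genes. No test was made of the ratio, since it is a score over chosen members. Per kilobase of exon, the median replication gene stood above the median mitosis gene in each of the 12 libraries, at 11.8 and 22.3 CPM per kilobase at day 3 for replication and 6.25 and 11.5 for mitosis.

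**Figure D4:**
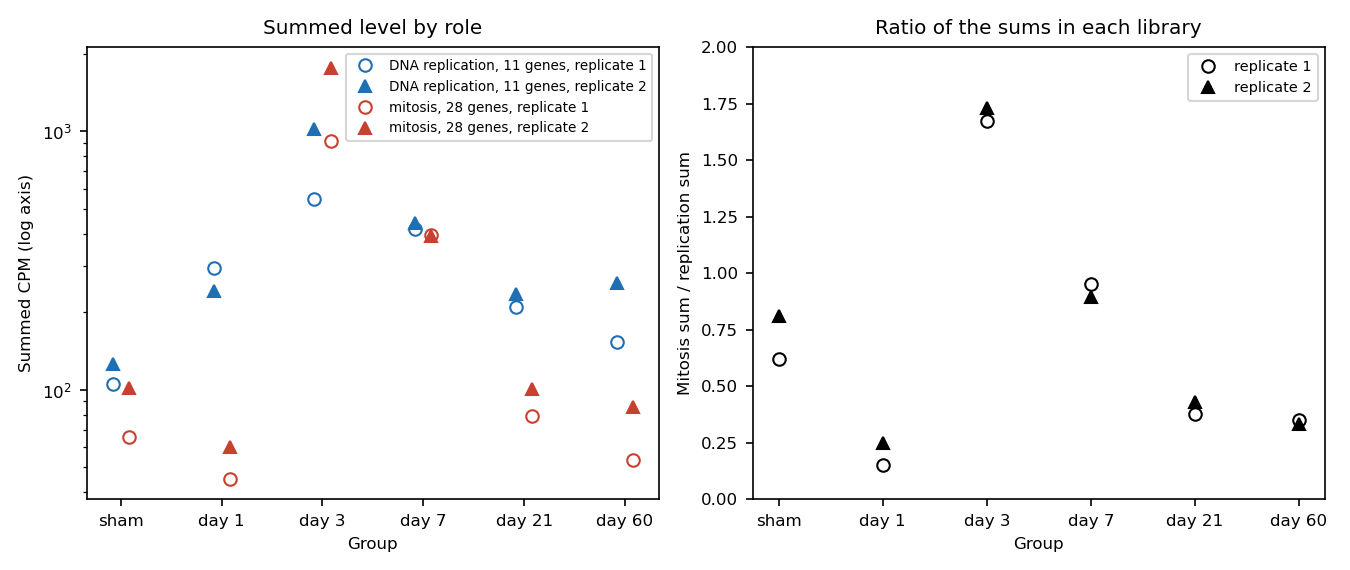
Left, summed CPM of the 11 replication genes (blue) and the 28 mitosis genes (red) in each library on a log axis. Right, the mitosis sum divided by the replication sum in each library on a linear axis, lowest at day 1 (0.153 and 0.248) and highest at day 3 (1.67 and 1.73).

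Other genes of the same pathways were counted over whole lists. In order of time, 16.7%, 18%, 23.2%, 17.8% and 16.8% of all genes were called higher than sham. The shares called lower were 13.9%, 14.2%, 19.8%, 15.4% and 14.8%. Of 41 other replication genes 9, 25, 15, 2 and 4 rose at days 1, 3, 7, 21 and 60, and 1 fell, at day 21. Of 58 other mitosis genes 3, 41, 23, 1 and 2 rose and 7, 1, 4, 5 and 4 fell. Their median log2 fold changes at day 1 were 0.65 for replication and -0.25 for mitosis, against 0.06 over all genes.
At day 1 the replication genes with the largest change were Timeless, a fork protection gene, at 3.53 ± 0.66 (adjusted p = 0.0046), Cdc7, the kinase that fires origins, at 3.16 ± 0.88 (adjusted p = 0.0219) and the polymerase alpha subunit gene Pola2 at 2.59 ± 0.59 (adjusted p = 0.0102). At day 3 they were Tk1 (thymidine kinase) at 5.11 ± 0.71 (adjusted p = 0.00088), the licensing factor gene Cdt1 at 4.08 ± 0.44 (adjusted p = 0.00031) and Chaf1b at 3.70 ± 0.62 (adjusted p = 0.0022). Cdt1 was still higher at day 60, at 2.48 ± 0.41 (adjusted p = 0.0021).
Among other mitosis genes at day 3 the kinetochore genes Cenph at 5.75 ± 1.40 (adjusted p = 0.0117), Cenpn at 5.37 ± 0.82 (adjusted p = 0.0014) and Cenpi at 5.32 ± 0.88 (adjusted p = 0.002) changed most. Cit (citron kinase, of cytokinesis) went the other way, at -4.63 ± 0.80 (adjusted p = 0.0013) on day 7. It had 11 and 7.65 CPM at day 7, against 181 and 281 CPM in sham. Over the same groups the sum of 10 neuron markers was 294.6 and 205.2 CPM at day 7, against 8324 and 10725 CPM in sham, and its part in the fall of Cit was not tested.

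Of the G1 regulators outside the 47 a part was called higher at each time. Of 17 other G1 cyclins, kinases and E2F factors 6, 8, 9, 5 and 4 rose at days 1, 3, 7, 21 and 60 and 0, 1, 3, 0 and 0 fell. Myc, a transcription factor that drives cell growth, had 118 and 139 CPM at day 1, against 2.81 and 4.95 CPM in sham, a change of 5.03 ± 0.43 (adjusted p = 0.00034). Cdk2, the partner of cyclin E, stood at 3.07 ± 0.47 at day 21 (adjusted p = 0.0024). The repressors E2f7 and E2f8 were higher at day 3, E2f7 at 4.51 ± 1.41 (adjusted p = 0.034) and E2f8 at 4.43 ± 1.26 (adjusted p = 0.0227).
Of 9 inhibitors and pocket protein genes 1, 1, 3, 2 and 3 rose at the 5 times and 0 fell. The counts at days 1 and 3 were below the 16.7% and 18% of all genes called higher. Cdkn2b (p15) rose at day 1, at 3.55 ± 0.81 (adjusted p = 0.0103). Cdkn1c (p57) had 372 and 274 CPM at day 60, against 53.4 and 54.5 CPM in sham, at 2.58 ± 0.39 (adjusted p = 0.0013).
Of 15 p53 targets 8, 5, 6, 4 and 4 rose and 0 fell. At day 1 Eda2r led at 4.09 ± 1.13 (adjusted p = 0.0221), before the death receptor gene Fas at 2.96 ± 0.41 (adjusted p = 0.0017) and Plk2 at 2.74 ± 0.66 (adjusted p = 0.0123). Gadd45a, a stress response gene, had 146 and 86.0 CPM at day 60, against 12.7 and 7.58 CPM in sham, at 3.52 ± 0.43 (adjusted p = 0.00038).

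**Figure D5:**
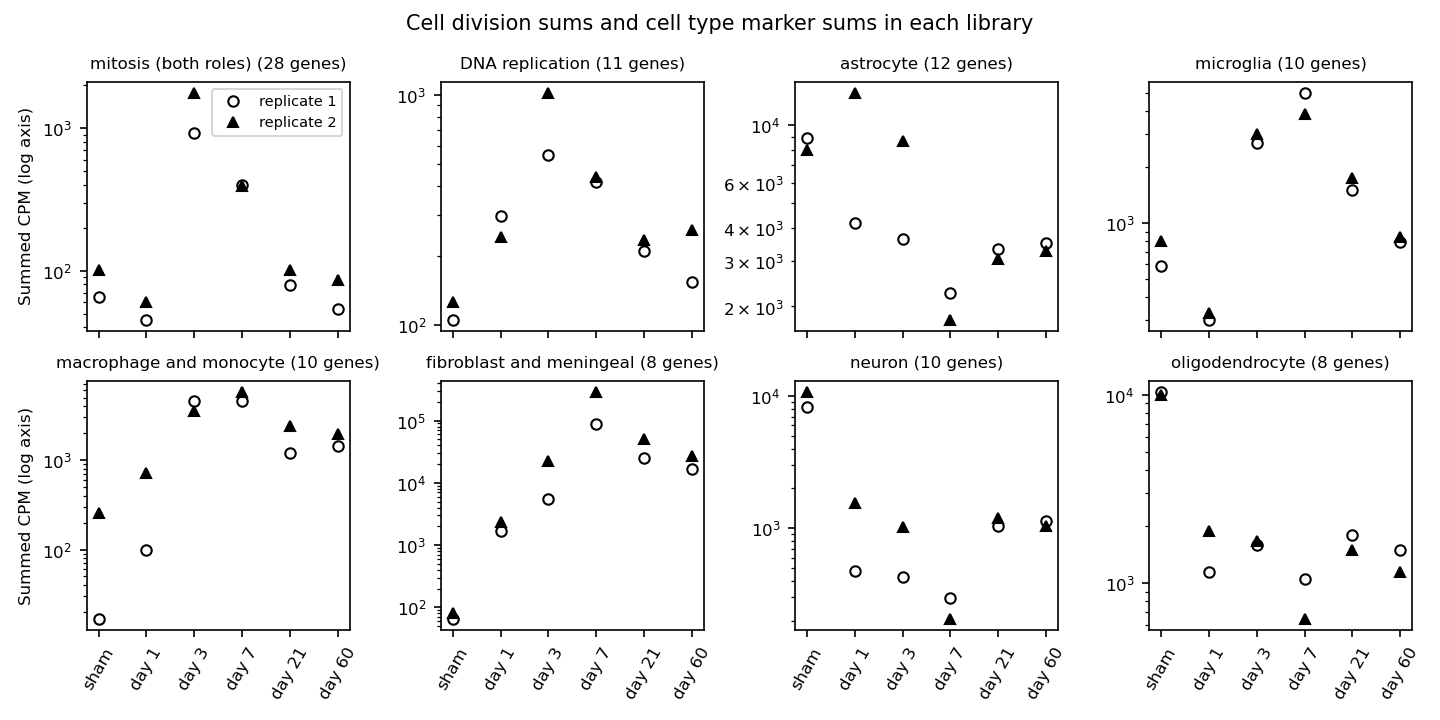
Summed CPM (log axes) of the mitosis and replication genes and of 6 lists of cell type markers in each of the 12 libraries by group, with open circles for replicate 1 and filled triangles for replicate 2. Microglia, macrophage and fibroblast sums are above sham at days 3 and 7 together with the mitosis sum, the astrocyte sum is lowest at day 7, and the neuron and oligodendrocyte sums of every stroke library are below both sham libraries.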

How the data were processed

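The values are raw counts per gene symbol as the authors deposited them, for RNA of sorted cortical astrocytes. Alignment with Bowtie2 2.3.4.2, counting with HTSeq 0.6.1 and the mm10 build are named in the submitters' processing notes. The annotation, strand setting and filters are not given in the sources used here. The counts of 12 libraries in 6 groups of 2 entered 1 fit in R 4.3.3 with edgeR 4.0.16. It used TMM scaling, filterByExpr with a minimum count of 10, and the quasi-likelihood F test with 6 residual degrees of freedom. Calls used a Benjamini-Hochberg adjusted p under 0.05 within each of 9 comparisons, and standard errors are the log2 change over the root of F. The procedure was tested on simulated data.

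Same-numbered replicates deviated together. The replicate differences of 15 of 15 group pairs had correlations from 0.319 to 0.713, over the limit of 0.1, so a blocked fit by replicate number was an alternative. The pairing comes from the data and the shared numbers, which also go with depth. Other alternatives were DESeq2 1.42.0, its size factors, no filter, the 4 libraries compared alone, and each library left out.

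The members and gene lists were chosen with earlier results of these data known. Named genes were 15 landmark members and, per comparison and role or list, the 3 called genes with the largest change, and others were chosen after their values were seen. Gene positions come from GENCODE vM21 and promoter windows from RefSeq, with letters searched on both strands. Lists were described by counts and medians, without set tests.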

Additional observations from a re-analysis of the deposited data

Results flagged for a closer look

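Of the 47 members, 8 were called higher than sham at 1 time and lower at another, and in 14 such pairs the difference between the times was itself tested in edgeR over all genes. All differences below are log2 values, the earlier-named time minus the later-named one, with n = 2 libraries each.

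Birc5 differed by 6.36 between day 3 and day 1 (adjusted p = 0.0019) and by 4.0 between day 7 and day 1 (adjusted p = 0.0010). Casc5 differed by 8.43 between day 3 and day 1 (adjusted p = 0.0019), by 6.68 between day 3 and day 60 (adjusted p = 0.0040), by 6.86 between day 7 and day 1 (adjusted p = 0.0010) and by 5.11 between day 7 and day 60 (adjusted p = 0.0111). Cenpf differed by 5.16 between day 3 and day 1 (adjusted p = 0.0019). Anln differed by 3.72 between day 3 and day 1 (adjusted p = 0.0048).

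Hmmr differed by 8.62 between day 3 and day 60 (adjusted p = 0.0038). Cdca5 differed by 5.29 between day 3 and day 1 (adjusted p = 0.0091). Esco2 differed by 9.79 between day 3 and day 1 (adjusted p = 0.0051) and by 8.22 between day 3 and day 60 (adjusted p = 0.0074), and these fitted values depend on the prior count, since it had 1 count in all at day 1 and 5 at day 60. Ccne1, the gene of cyclin E1, differed by 3.63 between day 3 and day 60 (adjusted p = 0.0077) and by 2.94 between day 7 and day 60 (adjusted p = 0.0192). The pairs were chosen for calls on opposite sides of sham, so the direction of these differences was set by that choice, and the tests are no independent support. Many of the calls against sham were lost when 1 library was left out. These were the day 1 calls of Anln, Birc5, Cdca5 and Cenpf, the day 3 calls of Anln, Ccne1, Cdca5 and Esco2, the day 7 calls of Birc5, Casc5 and Ccne1, and the day 60 calls of Casc5, Ccne1 and Esco2.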

How the results depend on the processing

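With 2 libraries a group, single calls often rested on 1 library, and the cause of a lost call was not tested. In none of the alternatives run did a called member change direction against its comparison group. The 44 members and all 28 mitosis and 11 replication genes called at day 3 against sham stayed within 1.5 times of those counts under each of them. DESeq2 size factors put the median log2 change of all genes against sham at -0.03, 0.05, -0.01, -0.05 and -0.08 at days 1, 3, 7, 21 and 60, where TMM gave 0.06, 0.16, 0.13, 0.07 and 0.01.

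With the replicate number as a block, the paired fit called 22 members between day 7 and day 3 in place of 10, 16 between day 21 and day 7 in place of 2, and 7 replication genes between day 3 and day 1 in place of 4. At day 60 it called 1 mitosis gene higher than sham in place of 0. Over all genes it called 1313 between day 3 and day 1 (558 without the block), 2853 between day 7 and day 3 (983), 635 between day 21 and day 7 (69) and 21 between day 60 and day 21 (0). Against sham it called 6754, 6861, 8459, 7227 and 6834 genes in order of time (4774, 5028, 6719, 5190 and 4929 without the block). Beside these and the counts given with the results it moved no count of members, replication or mitosis genes by over 1.5 times.

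DESeq2 called 1426, 2618, 1047 and 114 of all genes in these 4 comparisons, 7 replication genes between day 3 and day 1, and 22, 20 and 3 members in the comparisons of days 7, 21 and 60 with the time before. Against sham it called 13 members lower at day 1, 10 of them mitosis genes, beside 3099 of all genes, where edgeR called 2168. The 4 libraries compared alone gave 2721 genes, 6 members, 3 replication genes and 0 mitosis genes higher at day 1, 3 members and 1 replication gene at day 60, and 0 genes, members, replication and mitosis genes between day 3 and day 1. They gave 0 genes and 0 members between day 7 and day 3, 350 genes and 15 members between day 21 and day 7, and 5 genes between day 60 and day 21. Without both day 7 libraries, 370 genes and 2 replication genes were called between day 3 and day 1, and 4 members, 3 replication genes and 0 mitosis genes at day 21.

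Leaving out each library in turn gave against sham 1954 to 5037, 2941 to 5315, 4476 to 6949, 2628 to 5593 and 2654 to 5317 genes at days 1, 3, 7, 21 and 60, and 7 to 16, 32 to 45, 17 to 31, 0 to 8 and 4 to 10 members. Replication genes higher than sham numbered 2 to 5, 10 to 11, 6 to 7, 0 to 5 and 0 to 4, and mitosis genes 0 to 1, 21 to 28, 11 to 23, 0 to 1 and 0. Between neighbouring times it gave 239 to 557, 0 to 1412, 2 to 228 and 0 to 2 genes in order of time, and 20 to 34, 0 to 13, 0 to 5 and 0 members. Between day 3 and day 1 it gave 0 to 5 replication and 19 to 27 mitosis genes. The lone library of a group was then taken to vary like the other groups. Replicate 1 had too few counts to measure members under about 1 CPM closely.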
